A study of Mus musculus with 15 samples.

Results

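The 40 genes described here encode the proteins that copy DNA, the enzymes that supply its building blocks, and the factors that put histones on the new strands. They were matched by symbol from a list that was chosen with earlier results of these data known. All 40 were among the 55571 rows of the count table and among the 14571 genes that passed a filter on low counts. RNA was sequenced from E0771 cells, a line grown from a mouse mammary carcinoma, that held an empty vector, wild-type Malt1 (Malt1_WT), or Malt1_PD, Malt1_V87R or Malt1_L88D. There were 15 libraries, 3 for each of the 5 groups, and by the title of the series the cells had no T cells with them. All groups, the vector group included, keep whatever Malt1 the cells make themselves. The labels do not say which promoter drives the constructs, how they were brought into the cells, or whether a group is 1 clone or a pool. They also do not say whether the libraries of a group come from separate cultures, so the p-values rest on a spread between libraries that may be technical. PD is not spelled out in the labels, and the Malt1_PD values come from columns whose names give a cysteine change. The other altered forms are named for substitutions at adjacent residues, which lie in the death domain of MALT1.

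MALT1 is a scaffold and protease that works with BCL10 and a CARD protein to switch on NF-kB. Replication itself is prepared before S phase, when the origin recognition complex, CDC6 and CDT1 load the MCM helicase onto DNA. CDC45 and the GINS complex then turn the loaded helicase into a moving one, primase and DNA polymerase alpha lay primers, and polymerases delta and epsilon extend them while held by the PCNA ring, which the RFC complex loads. RPA covers the single strands, FEN1 and LIG1 process and join the lagging-strand fragments, and CAF-1 deposits histones behind the fork. Many of these genes are known targets of E2F transcription factors and are transcribed mostly around the start of S phase, so cycling cells hold more of their mRNA than resting ones.

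Total counts per library ran from 15471746 to 21458457, and the 40 genes together took 0.253% to 0.453% of them. Levels are given as CPM, counts relative to a library total scaled by the TMM method, ± SD over n = 3 libraries. Changes are log2 fold changes ± SE from edgeR's quasi-likelihood test, with p-values adjusted over all 14571 genes by the Benjamini-Hochberg method, and a gene is called at an adjusted p under 0.05. Of 10 epithelial markers, 2 passed the filter, Krt8 and Epcam, and the list summed to 117 to 134 CPM with the vector, 93.8 to 101 CPM in Malt1_WT and 119 to 124 CPM in Malt1_PD. In Malt1_V87R it summed to 96.5 to 101 CPM and in Malt1_L88D to 102 to 106 CPM. Against the vector both tested markers were called lower in Malt1_WT, Malt1_V87R and Malt1_L88D, and 1 in Malt1_PD. Of all genes tested, 27.7% were called lower in Malt1_WT, 4.7% in Malt1_V87R, 8.43% in Malt1_L88D and 22% in Malt1_PD. Krt5 was at 0 in every library of 4 groups. Prim2, with 5 to 24 counts per library, and Fen1, with 36 to 129, were the members with the fewest counts.

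Malt1, the gene expressed from the constructs, was first read in every library. It stood at 26.4, 30.2 and 27.8 CPM with the vector, at 208, 193 and 206 CPM in Malt1_WT and at 260.0, 247 and 243 CPM in Malt1_PD. In Malt1_V87R it stood at 279, 279 and 281 CPM and in Malt1_L88D at 258, 245 and 251 CPM. All 12 libraries with a construct lay above the 3 vector libraries, and those of Malt1_WT lay below those of the 3 altered forms. Gene counts do not separate construct transcripts from endogenous ones.

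Whether wild-type Malt1 changes the replication genes of tumour cells was read from Malt1_WT against the vector. Of the 40 genes, 38 fell, none rose, and Pole2 and Prim2 were not called. Over all genes tested, 27.7% were called lower and 27.2% higher. The median log2 fold change was -0.72 for the 40 genes and -0.01 for all genes, and 27 of the 40 fell by 1.5-fold or more, against 8.32% of all genes. Summed over the 40 genes, the level was 4462, 4326 and 4292 CPM in the 3 vector libraries and 2689, 2617 and 2631 CPM in the 3 Malt1_WT libraries. The Malt1_WT mean was thus 60.7% of the vector mean, with no overlap between the groups. For 38 single genes, too, the 3 Malt1_WT libraries all lay below the 3 vector libraries, a separation that 30.2% of all genes showed. In RNA from whole cultures, fewer cells in S phase and less RNA per such cell cannot be told apart.

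Markers of other cell types were read in the same libraries. The 20 macrophage markers, of which 10 passed the filter, summed to 47.3 to 51.0 CPM with the vector, 85.0 to 85.7 CPM in Malt1_WT and 83.0 to 89.1 CPM in Malt1_PD. In Malt1_V87R they summed to 48.4 to 51.3 CPM and in Malt1_L88D to 49.3 to 72.6 CPM. In Malt1_WT 6 of the 10 were called higher and 1 lower, in Malt1_PD 8 higher and 1 lower, in Malt1_V87R 1 higher and none lower, and in Malt1_L88D 4 higher and none lower. Of all genes tested, 27.2% were called higher and 27.7% lower in Malt1_WT, and 22.8% and 22% in Malt1_PD. The shares were 7.01% and 4.7% in Malt1_V87R and 8.96% and 8.43% in Malt1_L88D. Aif1 was at 0 in all vector libraries, H2-Ab1 in all Malt1_PD libraries and Fcgr1 in all Malt1_V87R libraries. The pan-leukocyte gene Ptprc stayed between 0.033 and 0.15 CPM. Of 12 T and NK cell markers, 1 passed the filter, and they summed to 1.96 to 2.56 CPM with the vector, 3.59 to 4.67 in Malt1_WT and 2.97 to 3.64 in Malt1_PD. Fibroblast markers summed to 442 to 467, 421 to 431 and 473 to 492 CPM, and endothelial markers to 26.7 to 28.1, 30.0 to 30.8 and 29.1 to 30.7 CPM, in the same order. In Malt1_V87R and Malt1_L88D the fibroblast sums were 428 to 454 and 432 to 440 CPM, the endothelial sums 22.52 to 23.95 and 22.35 to 25.38 CPM. Of 8 tested fibroblast markers, 5 were called lower and 2 higher in Malt1_WT, and 2 lower and 1 higher in Malt1_PD. In Malt1_V87R none was lower and 1 higher, and in Malt1_L88D 2 lower and 1 higher. Of 4 tested endothelial markers, 2 were higher and none lower in Malt1_WT, and 1 each in Malt1_PD. In Malt1_V87R and in Malt1_L88D 1 was lower and none higher. The part of these markers in the fall of the replication genes was not tested.

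**Figure D1:**
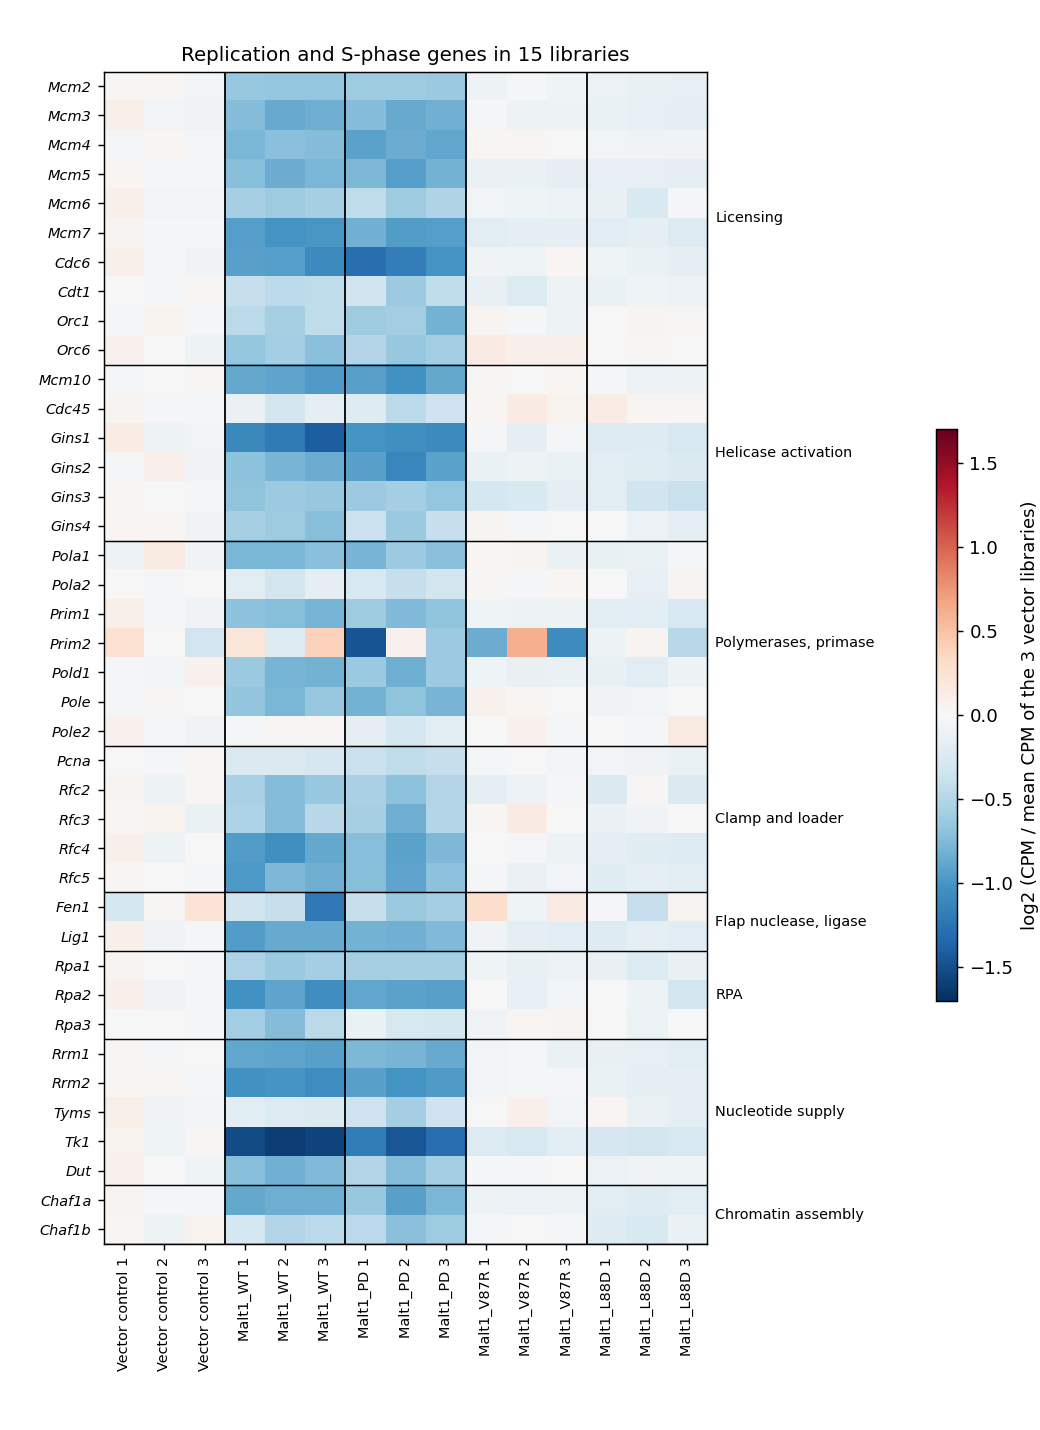
Level of each of the 40 genes (rows, grouped by role) in each of the 15 libraries (columns), as log2 of its CPM over the mean CPM of the vector libraries; blue is lower and red higher than the vector. The Malt1_WT and Malt1_PD columns are blue in nearly all rows, down to a mean of 33.8% of the vector level for Tk1 in Malt1_WT, while Prim2, with 5 to 24 counts per library, scatters in every group.

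Among the 10 licensing genes, which load the helicase onto origins, all 10 fell in Malt1_WT, with a median of -0.70. The 6 subunits of the MCM2-7 helicase ranged from -0.98 for Mcm7 to -0.58 for Mcm6. Positions given here are those of GENCODE M21. Mcm7 (GRCm38 chromosome 5, 138164583 to 138172422, minus strand) had 288, 276 and 272 CPM with the vector, 145, 138 and 139.9 CPM in Malt1_WT and 159, 145 and 146 CPM in Malt1_PD. It had 246, 248 and 252 CPM in Malt1_V87R and 245, 249 and 237 CPM in Malt1_L88D. The Malt1_WT and Malt1_PD libraries overlapped each other and lay far below the rest, and the libraries of both death-domain forms lay below all vector libraries. Against the vector Mcm7 changed by -0.98 ± 0.04 in Malt1_WT (edgeR adjusted p = 4.3e-18) and -0.90 ± 0.04 in Malt1_PD (adjusted p = 5.2e-17). Its smaller changes were -0.17 ± 0.04 in Malt1_V87R (adjusted p = 0.0041) and -0.19 ± 0.04 in Malt1_L88D (adjusted p = 0.00079). Cdt1, which brings the helicase to the origin recognition complex, fell least of the role (GRCm38 chromosome 8, 122568015 to 122573554, plus strand). It had 142, 139 and 143 CPM with the vector, 108, 104 and 105 CPM in Malt1_WT and 112, 92.3 and 105 CPM in Malt1_PD. It had 129.5, 120.5 and 133 CPM in Malt1_V87R and 130.2, 134 and 132 CPM in Malt1_L88D. Its change was -0.42 ± 0.05 in Malt1_WT (edgeR adjusted p = 7.3e-08) and -0.15 ± 0.05 in Malt1_V87R (adjusted p = 0.061, not called), although the Malt1_V87R libraries did not overlap those of the vector. Without Malt1_V87R replicate 3 it was called (-0.18, adjusted p = 0.043). Cdc6, the loader ATPase, fell to 50.9% of its vector level in Malt1_WT and to 44.97% in Malt1_PD. The origin recognition subunit genes Orc1 and Orc6 fell to 71.5% and 64.0% in Malt1_WT.

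Since these genes moved together and many are known E2F targets, their promoters were searched for E2F-type letters, TTTCCCGC or TTTGGCGC on either strand. RefSeq promoters of build GRCm38.p6, from 250 bases before to 50 after a start, were matched by symbol for 33 of the 40 genes, all but Mcm4, Gins1, Gins2, Gins4, Prim2, Pole and Rfc2. The letters were found for 11 of the 33 genes (33.3%), and for 1.8% of the 27025 genes in the same table. Related lists, described below, also held them: 7 of 26 regulators of S-phase entry (26.9%) and 8 of 35 other replication genes (22.9%). So did 3 of 14 replication checkpoint genes (21.4%) and 2 of 11 genes that copy chromatin (18.2%). None of 17 other nucleotide genes or of 10 other polymerases had them. By role, among the 33 genes, the letters were found for 6 of 9 licensing genes and 3 of 5 polymerase and primase genes. They were also found for 1 of 3 helicase activation genes and 1 of 4 clamp and loader genes, and for none of the other 12. In 6 genes the letters lay before the start. For 2 of these, Mcm7 and Gins3, GENCODE M21 has an exon at that place, and the 4 shown are those where it has none. Each is given 5′ to 3′ on the gene's own strand, with the E2F-type letters (or their reverse complement) in capitals. Cdc6 (chr11:98907982-98908080, plus strand) has them 138 bases before the start, in GENCODE M21 within the gene but in no exon. Mcm5 (chr8:75109300-75109427, plus strand) has them 149 bases before it, Mcm6 (chr1:128359706-128359875, minus strand) 2 times, 110 and 47 bases before it, and Pola1 (chrX:93632226-93632353, minus strand) 138 bases before it.
Cdc6: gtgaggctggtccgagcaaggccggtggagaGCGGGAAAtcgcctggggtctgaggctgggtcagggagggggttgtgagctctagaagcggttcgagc
Mcm5: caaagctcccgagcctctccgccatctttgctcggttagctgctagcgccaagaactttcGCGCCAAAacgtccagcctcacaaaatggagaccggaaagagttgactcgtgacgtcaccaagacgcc
Mcm6: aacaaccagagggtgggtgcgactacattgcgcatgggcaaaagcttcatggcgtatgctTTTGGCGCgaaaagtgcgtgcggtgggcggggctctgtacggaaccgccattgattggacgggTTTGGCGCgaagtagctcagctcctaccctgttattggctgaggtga
Pola1: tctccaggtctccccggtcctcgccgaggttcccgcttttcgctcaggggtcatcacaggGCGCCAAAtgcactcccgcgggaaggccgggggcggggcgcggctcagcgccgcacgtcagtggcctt
In the 3 libraries of Malt1_WT these 4 genes stood at 50.9%, 58.2%, 66.9% and 59.2% of their vector levels. Tk1 and Rrm2, with the lowest and third-lowest log2 fold changes of the 40, have no such letters in their windows, and Gins1, the second-lowest, had no window. Mcm7 and Cdc6, at -0.98 and -0.97, have them. Only these exact letters were searched, and whether they go with the size of a change was not tested.

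Other letters were counted in the same windows. TTTGAA, the core of the CHR element known from promoters of mitotic genes, was in those of 4 of the 33 replication genes (12.1%), of 25 of 34 mitosis genes (73.5%) and of 20.2% of all genes. The E2F-type letters were in those of 0 of the 34 mitosis genes. CCAAT was in those of 60.6% of the replication genes, 76.5% of the mitosis genes and 41.1% of all genes. GGGCGG, the letters bound by SP1, was in those of 75.8%, 79.4% and 38.2%. Both strands were read, and no E2F-type letters of a member overlapped those of another motif. A match describes the letters and does not show binding.

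The 6 genes that activate the loaded helicase all fell in Malt1_WT, with a median of -0.71. Gins1, a subunit of the 4-part GINS complex (GRCm38 chromosome 2, 150905400 to 150931280, plus strand), had 31.3, 26.9 and 27.6 CPM with the vector, 13.4, 12.4 and 10.9 CPM in Malt1_WT and 14.1, 13.9 and 13.5 CPM in Malt1_PD. It had 28.3, 25.4 and 28.1 CPM in Malt1_V87R and 24.4, 24.5 and 23.6 CPM in Malt1_L88D. Its Malt1_WT level was 42.6% of the vector level (log2 fold change -1.23 ± 0.08, edgeR adjusted p = 3.7e-13), and no Malt1_WT or Malt1_PD library reached any library of the other groups. Cdc45, the partner that completes the moving helicase (GRCm38 chromosome 16, 18780447 to 18811987, minus strand), changed least of the 6. It had 52.7, 50.2 and 50.1 CPM with the vector, 47.2, 41.0 and 45.8 CPM in Malt1_WT and 43.8, 37.1 and 39.98 CPM in Malt1_PD. It had 52.1, 56.4 and 53.1 CPM in Malt1_V87R and 55.5, 52.0 and 51.7 CPM in Malt1_L88D. The change of Cdc45 in Malt1_WT was -0.19 ± 0.06 (edgeR adjusted p = 0.011). It was not called without Malt1_WT replicate 2 (log2 fold change -0.12, adjusted p = 0.16) or without vector replicate 1 (adjusted p = 0.073). Mcm10, which stabilises the new fork, fell to 53.2% of its vector level, and the other GINS genes Gins2, Gins3 and Gins4 to between 58.6% and 64.7%.

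Of the 7 polymerase and primase genes, 5 fell in Malt1_WT. Pola1, the catalytic subunit of polymerase alpha (GRCm38 chromosome X, 93304767 to 93632155, minus strand), had 104, 123 and 106 CPM with the vector, 64.5, 64.6 and 67.6 CPM in Malt1_WT and 64.4, 72.4 and 67.5 CPM in Malt1_PD. It had 113, 114 and 102 CPM in Malt1_V87R and 102, 102 and 108 CPM in Malt1_L88D. Its change was -0.76 ± 0.06 in Malt1_WT (edgeR adjusted p = 1.5e-11), with the 6 lower libraries well apart from the other 9. Prim2, the large primase subunit (GRCm38 chromosome 1, 33453810 to 33669795, minus strand), had 0.883, 0.738 and 0.588 CPM with the vector, 0.848, 0.633 and 0.964 CPM in Malt1_WT and 0.266, 0.772 and 0.482 CPM in Malt1_PD. It had 0.408, 1.117 and 0.351 CPM in Malt1_V87R and 0.694, 0.762 and 0.532 CPM in Malt1_L88D. All groups overlapped, and a change was not detectable at these counts: the Malt1_WT estimate of 0.13 ± 0.41 (edgeR adjusted p = 0.81) has a 95% interval from -0.68 to 0.95. Pole2, the second subunit of polymerase epsilon, is the other uncalled gene, with 45.1, 42.2 and 41.0 CPM with the vector and 41.8, 43.2 and 43.4 CPM in Malt1_WT. Its 95% interval was -0.12 to 0.12, but an exon of Gm49384 overlaps it on the same strand, so its counts are uncertain. Pole, the catalytic subunit of the same enzyme, fell to 61.7% of its vector level, Pold1, that of polymerase delta, to 59.9%, the small primase subunit gene Prim1 to 59.96%, and Pola2, the second subunit of polymerase alpha, to 86.0%.

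The 5 clamp and clamp loader genes all fell in Malt1_WT, with a median of -0.64. Rfc4, a small subunit of the loader (GRCm38 chromosome 16, 23113943 to 23127737, minus strand), had 47.8, 42.7 and 45.2 CPM with the vector, 23.5, 21.9 and 24.8 CPM in Malt1_WT and 27.4, 24.0 and 26.8 CPM in Malt1_PD. It had 45.04, 44.2 and 42.7 CPM in Malt1_V87R and 40.6, 39.1 and 38.9 CPM in Malt1_L88D. The Malt1_WT and Malt1_PD libraries overlapped each other and none of the rest, and the change was -0.95 ± 0.07 in Malt1_WT (edgeR adjusted p = 4.8e-13). Pcna, the sliding clamp (GRCm38 chromosome 2, 132249162 to 132253314, minus strand), had 290.5, 282 and 293 CPM with the vector, 243, 244 and 236 CPM in Malt1_WT and 221, 214 and 219 CPM in Malt1_PD. It had 284, 287 and 279 CPM in Malt1_V87R and 279, 276 and 267 CPM in Malt1_L88D. The estimate for the clamp was the one nearest 0 of the role, -0.26 ± 0.04 in Malt1_WT (edgeR adjusted p = 3.2e-07), though no library overlapped the vector libraries. Rfc2, Rfc3 and Rfc5 fell to 64.0%, 66.8% and 55.4% of their vector levels. Over the 15 libraries the pseudogene Pcna-ps2 held 6935 counts and Pcna 72339, so reads may have been split between near-identical copies and the level of Pcna is uncertain.

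Both genes that finish lagging-strand fragments fell in Malt1_WT. Lig1, the DNA ligase (GRCm38 chromosome 7, 13277283 to 13311433, plus strand), had 108, 97.4 and 99.7 CPM with the vector, 52.7, 56.4 and 56.1 CPM in Malt1_WT and 58.5, 57.6 and 60.3 CPM in Malt1_PD. It had 97.9, 91.5 and 89.0 CPM in Malt1_V87R and 87.4, 90.3 and 88.8 CPM in Malt1_L88D. The change was -0.89 ± 0.05 in Malt1_WT (edgeR adjusted p = 9.1e-15), and no Malt1_WT or Malt1_PD library came near the rest. Fen1, the flap endonuclease (GRCm38 chromosome 19, 10199132 to 10204169, minus strand), was read at 4.37, 5.41 and 6.27 CPM with the vector, 4.24, 4.09 and 2.31 CPM in Malt1_WT and 4.09, 3.44 and 3.59 CPM in Malt1_PD. It was read at 6.59, 5.07 and 5.92 CPM in Malt1_V87R and 5.24, 4.09 and 5.50 CPM in Malt1_L88D. The spread within groups was large, with 1 Malt1_WT library well under the others. The change of -0.58 ± 0.19 (edgeR adjusted p = 0.01) was not called without Malt1_WT replicate 3 (-0.34, adjusted p = 0.13) or without vector replicate 3 (-0.42, adjusted p = 0.093).

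All 3 subunit genes of RPA, the single-strand binding complex, fell in Malt1_WT. Rpa2 (GRCm38 chromosome 4, 132768332 to 132778752, plus strand) had 65.5, 58.9 and 60.3 CPM with the vector, 30.2, 32.9 and 29.6 CPM in Malt1_WT and 33.4, 32.8 and 32.6 CPM in Malt1_PD. It had 61.6, 55.8 and 59.9 CPM in Malt1_V87R and 61.6, 58.2 and 49.5 CPM in Malt1_L88D. The level of Rpa2 in Malt1_WT was 50.2% of the vector level, a change of -0.99 ± 0.07 (edgeR adjusted p = 7.1e-13). Rpa1, the largest subunit (GRCm38 chromosome 11, 75298166 to 75348324, minus strand), had 187, 179 and 176 CPM with the vector, 126, 117 and 121 CPM in Malt1_WT and 122, 122 and 123 CPM in Malt1_PD. It had 172, 166 and 168 CPM in Malt1_V87R and 166, 154 and 166 CPM in Malt1_L88D. The change of Rpa1 was -0.58 ± 0.04 in Malt1_WT (edgeR adjusted p = 1.5e-12), and the Malt1_PD libraries lay within the range of those of Malt1_WT. Rpa3, the smallest subunit, fell to 66.4% of its vector level.

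The 5 genes of deoxynucleotide supply fell in Malt1_WT with the lowest median of the 8 roles, -0.90, and in their summed level to 51.9% of the vector. Tk1, the salvage thymidine kinase (GRCm38 chromosome 11, 117815526 to 117826092, minus strand), had the lowest fold change of the 40. It had 145, 132 and 141 CPM with the vector, 48.6, 46.0 and 47.0 CPM in Malt1_WT and 61.1, 50.6 and 56.6 CPM in Malt1_PD. It had 119, 116 and 121 CPM in Malt1_V87R and 114, 112 and 115 CPM in Malt1_L88D. Every group with Malt1 lay below the vector, the Malt1_WT libraries below those of Malt1_PD, and those of both death-domain forms between Malt1_PD and the vector. Tk1 differed from its vector level by -1.56 ± 0.06 in Malt1_WT (edgeR adjusted p = 7.7e-20), -1.31 ± 0.05 in Malt1_PD (adjusted p = 4.7e-18), -0.23 ± 0.05 in Malt1_V87R (adjusted p = 0.0017) and -0.29 ± 0.05 in Malt1_L88D (adjusted p = 0.00011). Tyms, the thymidylate synthase of the de novo route (GRCm38 chromosome 5, 30058202 to 30073617, minus strand), changed least. It had 66.7, 59.4 and 60.4 CPM with the vector, 55.1, 52.7 and 52.2 CPM in Malt1_WT and 48.9, 41.7 and 48.5 CPM in Malt1_PD. It had 62.3, 66.2 and 60.2 CPM in Malt1_V87R and 63.6, 57.6 and 55.5 CPM in Malt1_L88D. The Malt1_WT change of -0.22 ± 0.06 (edgeR adjusted p = 0.004) was not called without vector replicate 1 (-0.15, adjusted p = 0.063). Rrm1 and Rrm2, the subunits of ribonucleotide reductase, fell to 53.5% and 49.0% of their vector levels, and Dut, which keeps uracil out of DNA, to 58.9%.

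Both CAF-1 genes fell in Malt1_WT. Chaf1a (GRCm38 chromosome 17, 56040439 to 56072289, plus strand) had 143, 137 and 135 CPM with the vector, 75.6, 77.8 and 78.1 CPM in Malt1_WT and 88.4, 73.3 and 80.7 CPM in Malt1_PD. It had 131, 129.5 and 131 CPM in Malt1_V87R and 122, 119 and 122 CPM in Malt1_L88D. Chaf1b (GRCm38 chromosome 16, 93883901 to 93906115, plus strand) had 37.5, 34.6 and 38.2 CPM with the vector, 30.0, 26.1 and 26.7 CPM in Malt1_WT and 26.9, 22.5 and 24.1 CPM in Malt1_PD. It had 36.4, 36.9 and 35.9 CPM in Malt1_V87R and 31.5, 30.7 and 34.0 CPM in Malt1_L88D. Both subunits were lowest in the Malt1_WT and Malt1_PD libraries, which did not reach the others. The change in Malt1_WT was -0.84 ± 0.05 for Chaf1a (edgeR adjusted p = 1.8e-14) and -0.42 ± 0.07 for Chaf1b (adjusted p = 1.1e-05).

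**Figure D2:**
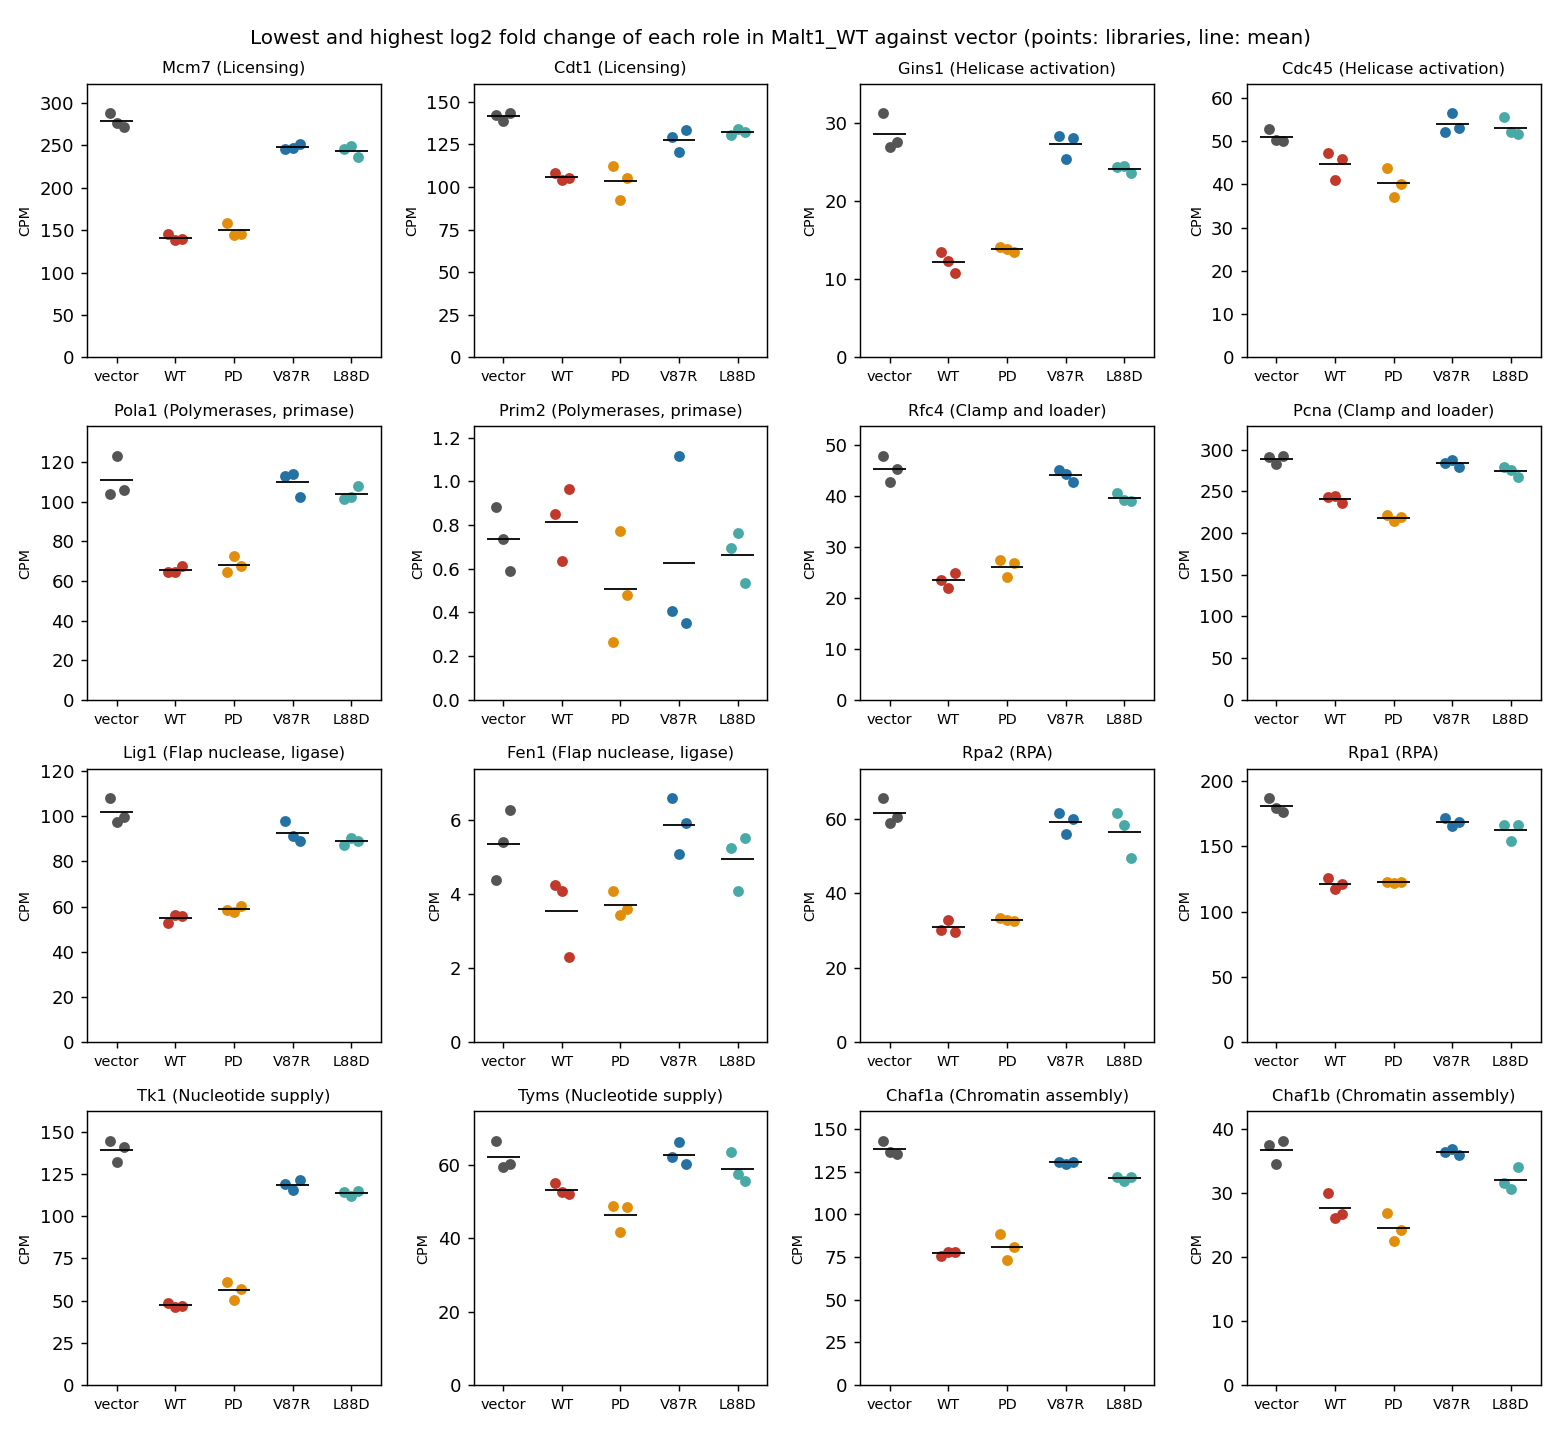
CPM (linear axis from 0) of the genes with the lowest and the highest log2 fold change of each role in Malt1_WT against the vector; points are the 3 libraries of a group and lines their means. Tk1 drops from a mean of 139 to 47.2 CPM, Pcna from 288 to 241 CPM, and the 5 groups of Prim2 overlap.

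Summed by role, the share of the vector level left in Malt1_WT ran from 51.9% for nucleotide supply and 54.8% for the flap nuclease and ligase pair to 68.9% for polymerases and primase and 73.8% for clamp and loader. Helicase activation stood at 62.0%, RPA at 63.3% and chromatin assembly at 59.8%. The licensing sum was 1480, 1431 and 1406 CPM in the vector libraries and 881, 853 and 857 CPM in those of Malt1_WT. Sums weigh genes by level, so Rrm1, Rrm2, Mcm7 and Pcna count most in them.

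**Figure D3:**
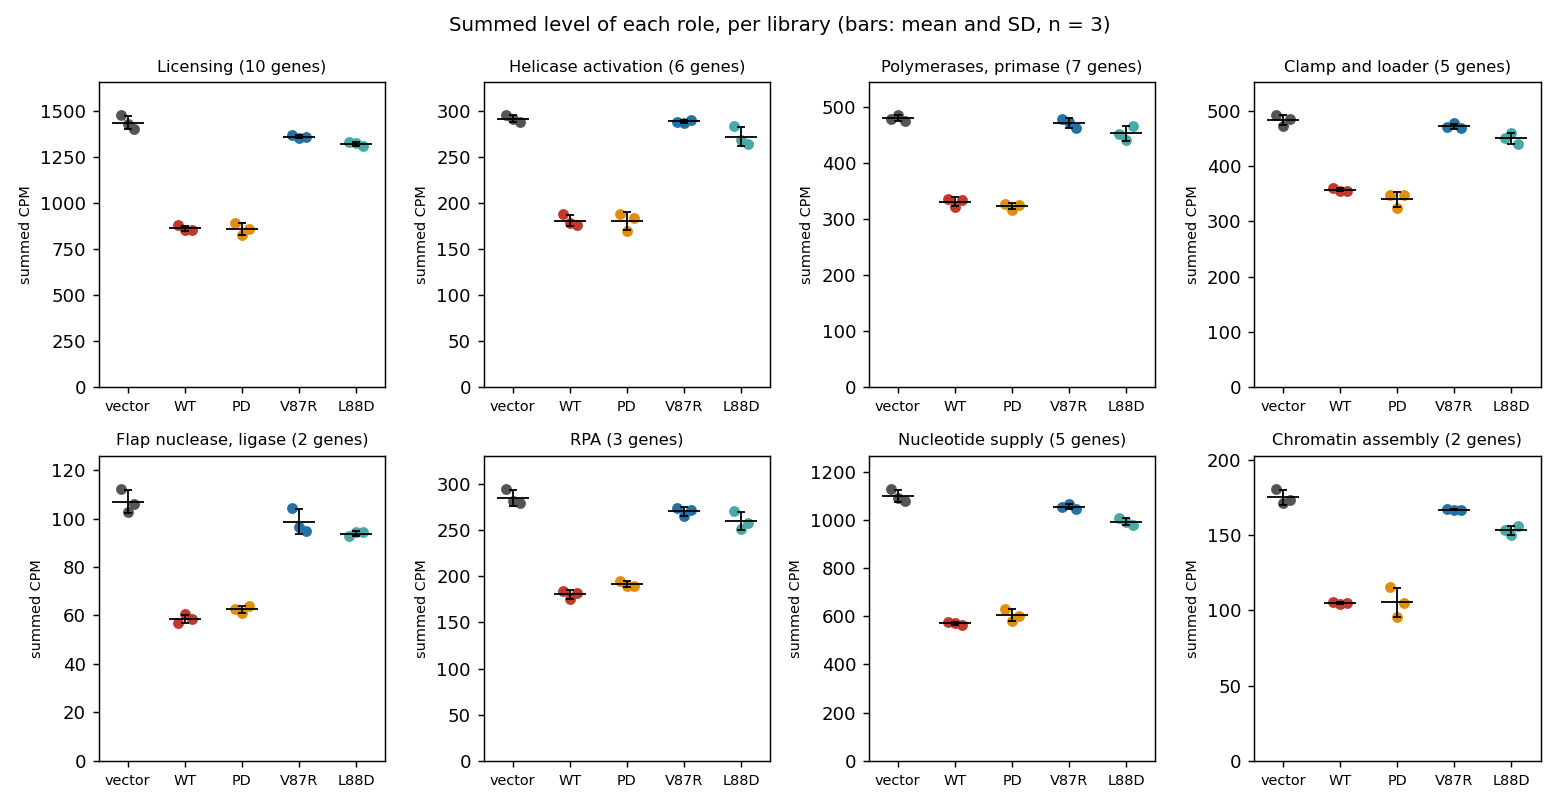
Summed CPM of the genes of each of the 8 roles (linear axis from 0), per library (points) with the mean and SD of each group (bars, n = 3). In every role the Malt1_WT and Malt1_PD points lie below all others, with licensing at means of 864 and 858 CPM against 1439 CPM with the vector.

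The same question was put to the form named PD. Of the 40 genes, 39 fell, none rose, and Prim2 was not called, where 22% of all genes tested were called lower and 22.8% higher. The median log2 fold change was -0.67, against 0.00 for all genes, and the libraries of the 39 did not overlap those of the vector, as for 24.2% of all genes. Of the 40, 26 fell by 1.5-fold or more, against 6.07% of all genes. Summed over the 40 genes, the Malt1_PD libraries had 2754, 2564 and 2674 CPM, and their mean was 61.1% of the vector mean. Tk1 fell to 40.3% of its vector level, Cdc6 to 44.97%, Gins1 to 48.2% and Rrm2 to 51.2%. Pole2, uncalled in Malt1_WT, had 38.0, 34.9 and 37.7 CPM and fell by 0.21 ± 0.06 on the log2 scale (edgeR adjusted p = 0.0048), but not without vector replicate 1 (adjusted p = 0.055). Rpa3, at 39.4, 35.4 and 34.5 CPM, fell by 0.22 ± 0.06 on the log2 scale (edgeR adjusted p = 0.0052) and was not called without Malt1_PD replicate 3 (adjusted p = 0.052). The fall of Fen1 (-0.52 ± 0.18, edgeR adjusted p = 0.021) was lost without Malt1_PD replicate 2 or 3 or vector replicate 3 (adjusted p = 0.06, 0.068 and 0.16). This comparison and that of Malt1_WT share the vector libraries, and their values are therefore set side by side and not as separate evidence.

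Malt1_PD and Malt1_WT were then compared directly, which asks whether the 2 forms differ in these genes. Of the 40 genes, 33 were not called, 3 were higher in Malt1_PD (Rpa3, Tk1 and Dut) and 4 lower (Pcna, Mcm4, Pole2 and Tyms). Over all genes tested 12.6% were called higher and 10.7% lower, or 1834 and 1565 genes, which became 1365 and 1766 with upper-quartile scaling. The median log2 difference of the 40 genes was 0.05, against 0.01 for all genes. Rpa3 differed most among the called genes, with 28.4, 25.6 and 30.9 CPM in Malt1_WT and 39.4, 35.4 and 34.5 CPM in Malt1_PD, a difference of 0.37 ± 0.07 (edgeR adjusted p = 0.00021). Tk1 differed by 0.25 ± 0.06 (adjusted p = 0.0018) and Dut by 0.16 ± 0.05 (adjusted p = 0.022). For Dut the libraries of the 2 groups overlapped, and its call was lost without Malt1_PD replicate 1 or 3 or Malt1_WT replicate 2 or 3 (adjusted p from 0.063 to 0.21). The Dut call was also lost with upper-quartile scaling (edgeR adjusted p = 0.057) and with only the 6 libraries compared in the fit (adjusted p = 0.086). Pcna had 243, 244 and 236 CPM in Malt1_WT and 221, 214 and 219 CPM in Malt1_PD, a difference of -0.14 ± 0.04 (adjusted p = 0.0039). Mcm4, a helicase subunit gene, had 98.1, 103 and 101 CPM in Malt1_WT and 89.3, 93.4 and 91.2 CPM in Malt1_PD (-0.14 ± 0.04, edgeR adjusted p = 0.011). With no filter on low counts Mcm4 was not called (edgeR adjusted p = 0.11). Pole2 differed by -0.22 ± 0.06 (adjusted p = 0.011) and Tyms by -0.20 ± 0.07 (adjusted p = 0.028), and Tyms was not called without Malt1_PD replicate 2 (adjusted p = 0.12) or Malt1_WT replicate 1 (adjusted p = 0.086). Without Malt1_PD replicate 2, 5 of the 40 genes were called higher in place of 3, where 2085 of all 14926 genes tested were. Leaving Prim2 aside, the 95% intervals of the other 39 genes ran between -0.38 and 0.50, so single differences up to that size are not excluded by these libraries.

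Malt1_V87R and Malt1_L88D were compared with the vector to ask what the forms altered in the death domain do. In Malt1_V87R 4 of the 40 genes fell (Mcm5, Mcm7, Gins3 and Tk1) and none rose, where 4.7% of all genes were called lower and 7.01% higher. The median was -0.05, against 0.00 for all genes, and the summed level was 4206, 4185 and 4159 CPM, a mean of 96.0% of the vector mean. The 4 changes were small: -0.23 ± 0.05 for Tk1, -0.24 ± 0.06 for Gins3 (edgeR adjusted p = 0.012), -0.17 ± 0.04 for Mcm7 and -0.13 ± 0.04 for Mcm5 (adjusted p = 0.047). Gins3 had 32.5, 31.6 and 31.2 CPM with the vector and 25.8, 26.4 and 28.5 CPM in Malt1_V87R, and Mcm5 had 246, 238 and 238 and 223, 222 and 217 CPM. Without vector replicate 1, or without Malt1_V87R replicate 2, 2 members were called lower, where 2.6% and 2.4% of all genes were. Mcm5 was not called when any 1 of 5 libraries was left out, vector replicate 1 or 3 or any of Malt1_V87R (adjusted p from 0.095 to 0.19), and Gins3 not without vector replicate 1 or Malt1_V87R replicate 1 or 2 (adjusted p from 0.065 to 0.076). At an unadjusted edgeR p under 0.05, 7 members were lower and 1 higher, where 23.9% of all genes passed in either direction. The higher one, Orc6, had 91.6, 87.02 and 82.3 CPM with the vector and 95.5, 92.7 and 92.6 CPM in Malt1_V87R. It was not called (0.11 ± 0.05, edgeR adjusted p = 0.19).

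In Malt1_L88D 16 of the 40 genes fell and none rose, where 8.43% of all genes were called lower and 8.96% higher. The median was -0.13, against -0.01 for all genes, and the summed level was 4042, 3980 and 3971 CPM, or 91.7% of the vector mean. The 16 were Mcm2, Mcm3, Mcm5, Mcm7, Gins1, Gins3, Prim1, Rfc4, Rfc5, Lig1, Rpa1, Rrm1, Rrm2, Tk1, Chaf1a and Chaf1b. Gins3 had the lowest value, with 27.7, 25.2 and 24.4 CPM in Malt1_L88D and a change of -0.30 ± 0.07 (edgeR adjusted p = 0.0013). Rrm2 had 401, 399 and 385 CPM with the vector and 365, 356 and 354 CPM in Malt1_L88D, a change of -0.14 ± 0.03 (edgeR adjusted p = 0.005). Fewer were called without 1 library: 5 without vector replicate 1, where 3.86% of all genes were called lower, and 9 without Malt1_L88D replicate 2 or without replicate 3, where 4.79% and 4.7% of all genes were. Vector replicate 1 had the highest summed level of the vector libraries (4462 CPM).

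**Figure D4:**
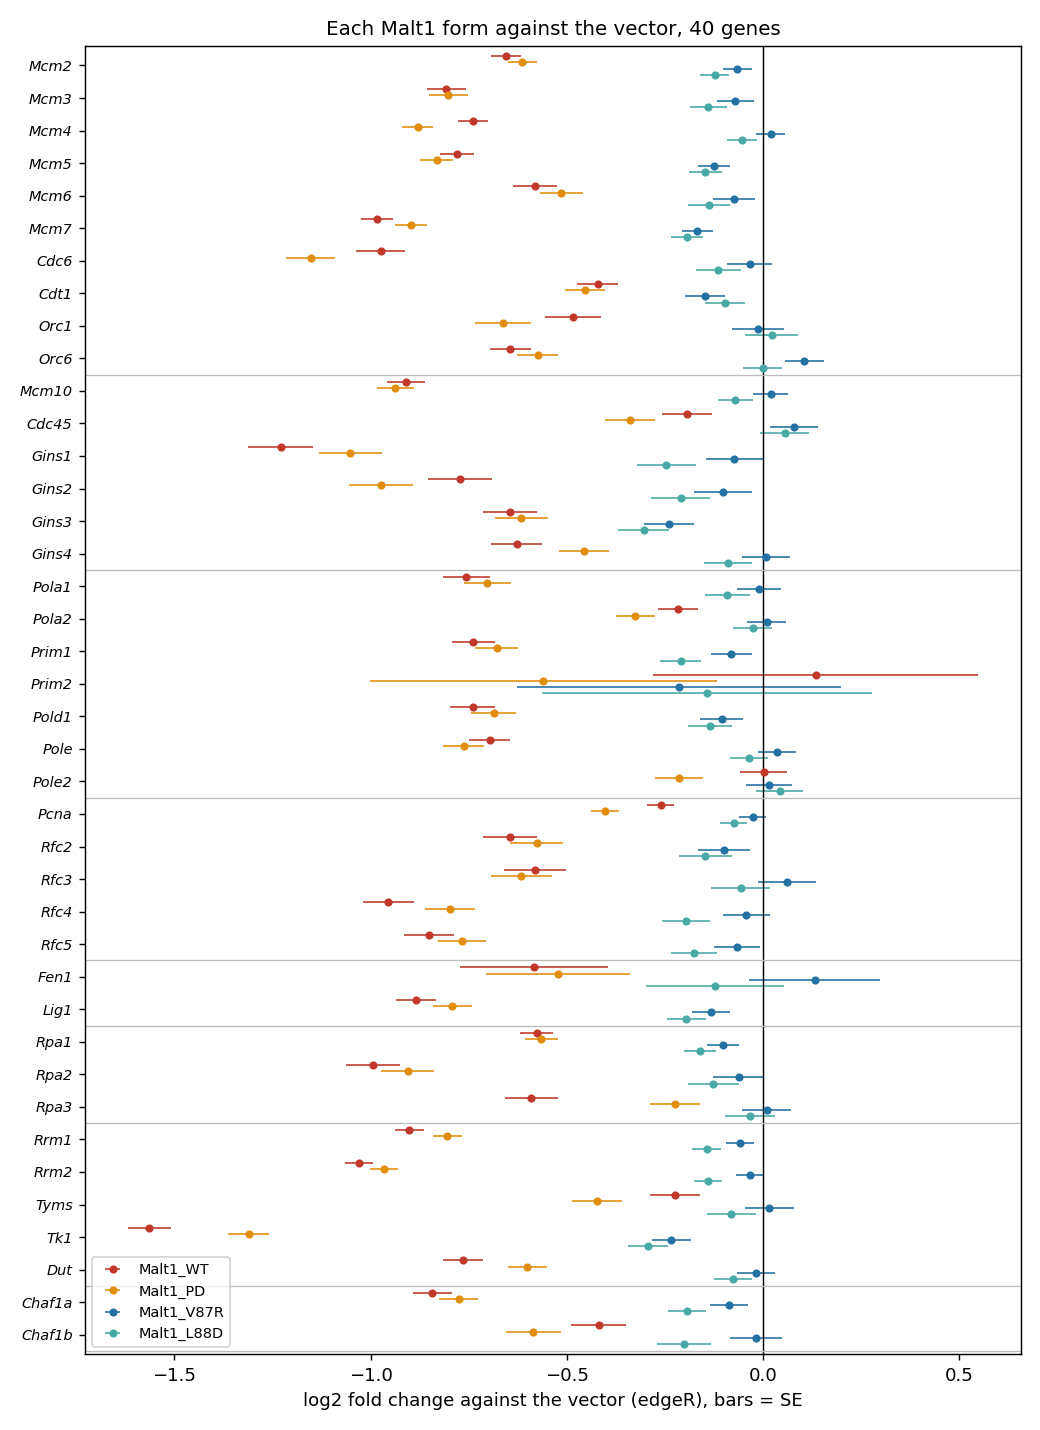
Log2 fold change of each of the 40 genes against the vector in each of the 4 Malt1 groups (points, with bars of 1 SE), grouped by role from licensing at the top to chromatin assembly at the bottom. Malt1_WT and Malt1_PD points lie left of 0 for nearly all genes, with medians of -0.72 and -0.67, and Malt1_V87R and Malt1_L88D points lie close to 0, with medians of -0.05 and -0.13; Prim2 has the widest bars.

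Set against Malt1_WT directly, the death-domain forms had more of these mRNAs. In Malt1_V87R 38 of the 40 genes were higher than in Malt1_WT and none lower (median 0.66), where 24.9% of all genes were called higher and 23.4% lower. In Malt1_L88D 36 were higher and none lower (median 0.58), where 22.8% of all genes were called higher and 22.3% lower. Fen1, Tyms, Prim2 and Pole2 were the uncalled genes in Malt1_L88D, and Prim2 and Pole2 those in Malt1_V87R. Fen1 was called in Malt1_L88D without Malt1_L88D replicate 2, Malt1_WT replicate 1 or Malt1_WT replicate 2 (edgeR adjusted p = 0.028, 0.031 and 0.044), and Tyms with only the 6 libraries compared in the fit (adjusted p = 0.036). Rrm2 had 193, 197 and 191 CPM in Malt1_WT, 383, 388 and 386 CPM in Malt1_V87R and 365, 356 and 354 CPM in Malt1_L88D. Its differences from Malt1_WT were 1.00 ± 0.04 and 0.89 ± 0.04 (edgeR adjusted p = 2.2e-19 and 3.5e-18), with no overlap of libraries. Those of Tk1 were 1.33 ± 0.06 and 1.27 ± 0.06 (adjusted p = 6e-18 and 2.4e-17), those of Rrm1 0.84 ± 0.04 and 0.76 ± 0.04 (adjusted p = 2.1e-17 and 3e-16), and those of Mcm7 0.82 ± 0.04 and 0.79 ± 0.04 (adjusted p = 5.3e-16 and 1.3e-15). Malt1 mRNA was also higher in both death-domain forms than in Malt1_WT, as its values above show. Both comparisons share the Malt1_WT libraries.

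Against Malt1_PD, 39 genes were higher in Malt1_V87R (median 0.66, with 20.4% of all genes called higher and 21.1% lower) and 38 in Malt1_L88D (median 0.57, with 20% and 21.4%), and none was lower. Prim2 was uncalled in both, and Fen1 in Malt1_L88D, where it was called without Malt1_L88D replicate 2 (edgeR adjusted p = 0.045). Mcm4 had 89.3, 93.4 and 91.2 CPM in Malt1_PD, 172, 172 and 167 CPM in Malt1_V87R and 163, 161 and 161 CPM in Malt1_L88D, differences of 0.90 ± 0.04 and 0.83 ± 0.04 (edgeR adjusted p = 2.3e-17 and 2.1e-16). Mcm10 had 54.1, 50.2 and 56.0 CPM in Malt1_PD, 104, 103 and 104 CPM in Malt1_V87R and 101, 95.3 and 96.3 CPM in Malt1_L88D, differences of 0.96 ± 0.05 and 0.87 ± 0.05 (edgeR adjusted p = 4.9e-16 and 6.1e-15). None of these libraries overlapped. Rrm2 differed by 0.93 ± 0.04 and 0.82 ± 0.04 (edgeR adjusted p = 1.4e-18 and 2.6e-17), Rrm1 by 0.75 ± 0.04 in Malt1_V87R (adjusted p = 4.1e-16) and Tk1 by 1.02 ± 0.05 in Malt1_L88D (adjusted p = 2.6e-15). These 2 comparisons share the Malt1_PD libraries.

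Between Malt1_V87R and Malt1_L88D, whose altered residues are neighbours, none of the 40 genes and none of the 14571 genes (0%) was called by edgeR, by DESeq2 or by limma-voom. At an unadjusted p under 0.05 edgeR had 8 of the 40 genes, all higher in Malt1_V87R, and 852 of all genes (5.85%). The smallest adjusted p of a member was 0.66, for Rrm2, which had 383, 388 and 386 CPM in Malt1_V87R and 365, 356 and 354 CPM in Malt1_L88D. For 19 of the 40 genes all 3 Malt1_V87R libraries lay above all 3 of Malt1_L88D, as for 8.28% of all genes, and for none did they lie below. The median log2 difference was 0.07, against 0.00 for all genes. For the 39 genes other than Prim2 the 95% intervals ran between -0.17 and 0.59, the upper end belonging to Fen1, so the libraries do not show that both forms left these genes alike.

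In the order of the group means, the vector was highest for 26 genes, Malt1_V87R for 11, Malt1_L88D for 2 and Malt1_WT for 1 (Prim2). Malt1_WT was lowest for 24 genes and Malt1_PD for 16. The commonest order, for 20 genes, ran from the vector down through Malt1_V87R, Malt1_L88D and Malt1_PD to Malt1_WT. Over all 40 genes, neighbours in that order were mostly not called apart: no gene between Malt1_V87R and Malt1_L88D, and 4 between the vector and Malt1_V87R. Between Malt1_PD and Malt1_WT 7 were called, 3 of them higher in Malt1_PD and 4 lower, the reverse of that order. The step between Malt1_L88D and Malt1_PD was called for 38 of the 40 genes.

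Levels of different genes were compared per kb of exon, with exon lengths from GENCODE M21. A length counts every annotated exon of the gene, used by these cells or not, so the ranks between genes are approximate. In the vector libraries Rrm2 led with 143 ± 3.25 CPM per kb, before Pcna with 120.2 ± 2.23, Mcm7 with 63.0 ± 1.85, Mcm5 with 60.3 ± 1.20 and Dut with 57.2 ± 2.76. Fen1, with 2.21 ± 0.394, and Prim2, with 0.124 ± 0.0248 CPM per kb, were lowest. In Malt1_WT Pcna had the highest level, with 100.3 ± 1.76 CPM per kb, and Rrm2 had 69.8 ± 1.05. Exons of 13 of the 40 genes overlap an exon of another gene on the opposite strand: Mcm7, Orc1, Orc6, Cdc45, Gins2, Pole, Rfc2, Rfc4, Rfc5, Fen1, Lig1, Tk1 and Chaf1a. The kit keeps strand, but the strand setting of the counting is not given in the sources used here, so the values of these genes are uncertain where the neighbour is also transcribed. On the same strand, exons of Gm49384 overlap Pole2, those of Gm47300 overlap Rpa1, and those of Mir25 and Mir93 overlap Mcm7. Reads there cannot be told apart by strand, so these 3 genes are uncertain too.

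Genes of the same processes that are not among the 40 were read from lists made for this purpose. For comparison, 27.7% of all genes tested were called lower and 27.2% higher in Malt1_WT against the vector, and 22% and 22.8% in Malt1_PD. The same shares were 4.7% and 7.01% in Malt1_V87R and 8.43% and 8.96% in Malt1_L88D. Of other replication genes, 30 of 40 tested fell in Malt1_WT and 4 rose (median -0.42). Top2a, the topoisomerase that untangles copied DNA, went from 1188 ± 37.5 to 493 ± 2.999 CPM (log2 fold change -1.27 ± 0.03), and Clspn, a fork protein of the checkpoint, from 97.7 ± 5.15 to 43.9 ± 1.27 CPM (-1.15 ± 0.05). Mtbp, a partner of the origin-firing factor Ticrr, and Pole4, a small polymerase epsilon subunit, rose by 0.42 ± 0.06 and 0.43 ± 0.06 on the log2 scale (edgeR adjusted p = 1.7e-07 and 1.2e-06). In Malt1_PD 31 fell and 2 rose, in Malt1_V87R none fell and 3 rose, and in Malt1_L88D 5 fell and 1 rose. Of 11 genes that copy chromatin, 10 fell in Malt1_WT and 11 in Malt1_PD (medians -0.62 and -0.48). Uhrf1 and Dnmt1, which copy DNA methylation, went from 332 ± 9.69 to 174 ± 7.16 CPM and from 289 ± 2.16 to 167 ± 2.47 CPM. None of the 11 was called in Malt1_V87R and 5 fell in Malt1_L88D.

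Of 20 other nucleotide genes, 11 fell and 4 rose in Malt1_WT (median -0.16). Paics and Umps, of purine and pyrimidine synthesis, changed by -0.62 ± 0.04 and -0.63 ± 0.04. Rrm2b, the reductase subunit of the p53 response, rose by 0.68 ± 0.13 on the log2 scale (edgeR adjusted p = 0.00013). Samhd1, which degrades deoxynucleotides, had 178, 175 and 182 CPM with the vector, 249, 231 and 247 CPM in Malt1_WT, 155, 147 and 155 CPM in Malt1_PD, 399, 377 and 364 CPM in Malt1_V87R and 378, 373 and 375 CPM in Malt1_L88D. Its highest libraries were those of both death-domain forms and its lowest those of Malt1_PD. In these groups, in the order given, it changed against the vector by 0.44 ± 0.04, -0.23 ± 0.04, 1.09 ± 0.04 and 1.07 ± 0.04 (edgeR adjusted p = 2.3e-10, 3.1e-05, 2.2e-18 and 3.8e-18). Polymerases of repair, lesion bypass and mitochondria gave 4 lower and 3 higher of 14 in Malt1_WT, with a median of -0.04. These counts are near the shares of all genes, of which 27.7% were called lower and 27.2% higher. Polh and Polq fell (-0.73 ± 0.06 and -0.79 ± 0.06), and Polm and Polk rose (0.48 ± 0.05 and 0.37 ± 0.07).

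Of 35 tested regulators of S-phase entry, 24 fell and 4 rose in Malt1_WT, where 27.7% of all genes were called lower and 27.2% higher. Ccna2, the S-phase cyclin, went from 266 ± 8.16 to 76.1 ± 2.81 CPM and E2f8, a repressor of the E2F family, from 126 ± 1.55 to 38.3 ± 2.98 CPM, changes of -1.80 ± 0.05 and -1.71 ± 0.05. Cdkn1a, the p21 inhibitor of cyclin-dependent kinases, rose from 283 ± 5.73 to 1043 ± 41.4 CPM (1.88 ± 0.04, edgeR adjusted p = 2.7e-24), and Ccnd2, a G1 cyclin, from 427 ± 27.4 to 669 ± 24.7 CPM (0.65 ± 0.05). In Malt1_PD 25 fell and 4 rose, in Malt1_V87R 7 fell and 2 rose, and in Malt1_L88D 7 fell and 3 rose. The shares of all genes called lower and higher were 22% and 22.8% in Malt1_PD and 4.7% and 7.01% in Malt1_V87R. In Malt1_L88D they were 8.43% and 8.96%. Cdkn1a had 875, 803 and 852 CPM in Malt1_PD, 323, 324 and 336 CPM in Malt1_V87R and 329, 362 and 362 CPM in Malt1_L88D. Of 18 replication checkpoint genes, 13 fell and 3 rose in Malt1_WT, with Wee1 and Fancd2 at -1.28 ± 0.08 and -1.10 ± 0.07 and Hus1 and Atm at 0.39 ± 0.06 and 0.41 ± 0.14 (edgeR adjusted p = 5.7e-06 and 0.024).

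Mitosis genes, which are transcribed later in the cycle, were read beside the 40 replication genes. In Malt1_WT all 38 tested mitosis genes fell, with a median of -1.75 against -0.72 for the replication genes. In Malt1_PD all 38 fell, with a median of -1.06 against -0.67. Of all genes tested, 27.7% were called lower in Malt1_WT and 22% in Malt1_PD. Prc1, of the spindle midzone, and the proliferation antigen gene Mki67 went from 155 ± 5.22 to 37.5 ± 0.397 CPM and from 226 ± 5.63 to 50.3 ± 1.80 CPM in Malt1_WT. Compared directly, Malt1_PD was higher than Malt1_WT for 36 of the 38 mitosis genes and lower for none (median 0.63). Of the 40 replication genes 3 were higher and 4 lower (median 0.05), where 12.6% of all genes were called higher and 10.7% lower. In Malt1_V87R 30 of the mitosis genes fell and in Malt1_L88D 31 (medians -0.25 and -0.31), against 4 and 16 of the replication genes. The shares of all genes called lower there were 4.7% and 8.43%. No test was made between the lists, and these counts describe them only.

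**Figure D5:**
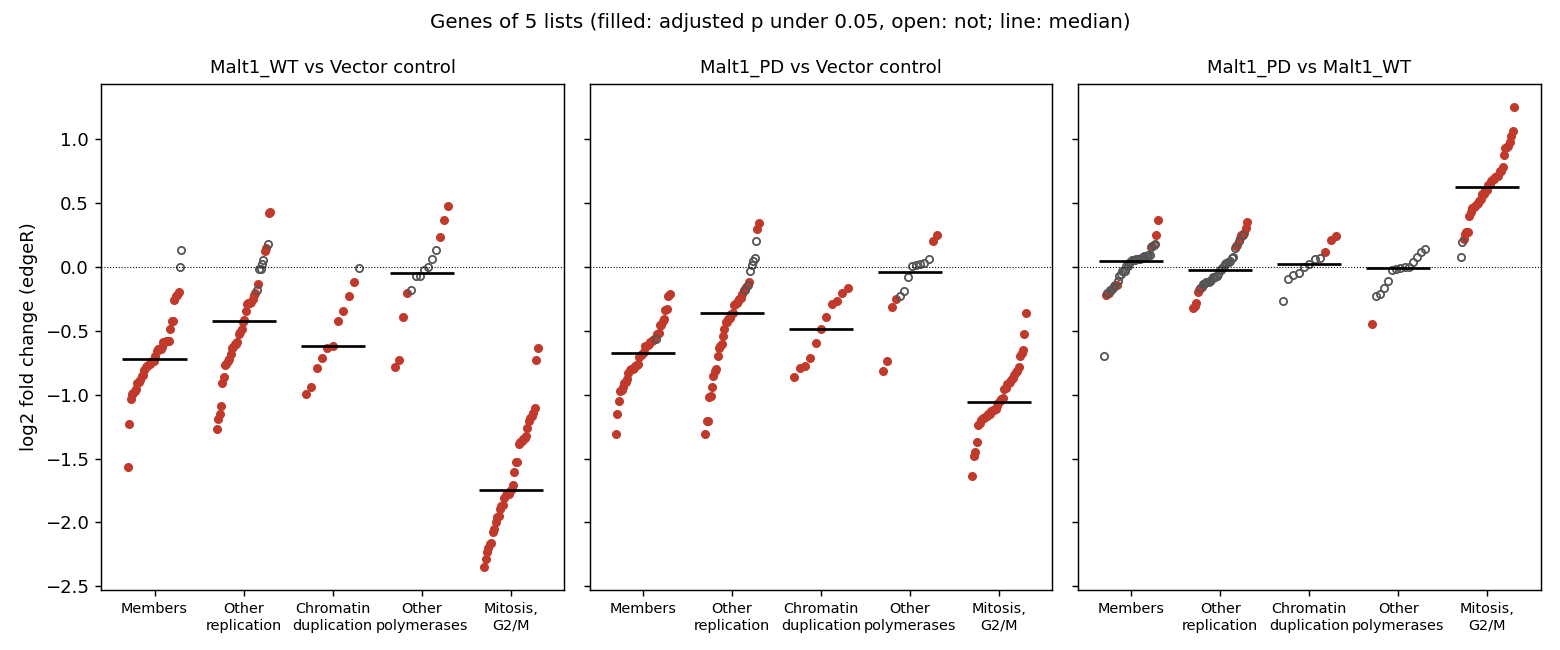
Log2 fold change (edgeR) of each tested gene of 5 lists in 3 comparisons; filled points have an adjusted p under 0.05, open points do not, and lines are medians. In Malt1_PD against Malt1_WT (right) the replication genes lie around 0 (median 0.05) and the mitosis genes above it (median 0.63).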

How the data were processed

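RNA of 15 libraries was measured, in groups given by the labels. The authors deposited raw counts per gene symbol, and the submitters' processing notes list the build GRCm38.p6, featureCounts 1.6.3, STAR 2.7.3a and Trim Galore 0.6.0. How strand and multi-mapping reads were counted is not given in the sources used here.

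The 40 genes were matched by symbol. The members, the lists and the naming rule (the lowest and highest log2 fold change of each role in Malt1_WT, the called genes of smallest adjusted p elsewhere, and every uncalled member) were chosen with earlier results of these data known. Values of a named gene in further comparisons were added after they were seen. In R 4.3.3, edgeR 4.0.16 (TMM scaling, filterByExpr by group, robust quasi-likelihood fit of all 15 libraries, a mean for each group) was used for 10 comparisons, two-sided, with Benjamini-Hochberg adjustment over 14571 genes at 0.05. SEs are the log2 fold change over the square root of the F statistic, and 95% intervals are normal. Scaling factors ran from 0.973 to 1.02, and the common biological coefficient of variation was 4.61%. Replicate libraries differed by more than sampling noise (chi-square per degree of freedom from 1.90 to 8.24).

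Alternatives were RLE, upper-quartile and no scaling, DESeq2 1.42.0, limma-voom (limma 3.58.1), no or a stricter filter (1 CPM in 3 libraries), only the libraries compared, a replicate block and each library left out. Positions and exon lengths are from GENCODE M21, promoters from RefSeq.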

Additional observations from a re-analysis of the deposited data

How the results depend on the processing

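Over 10 comparisons and 40 genes, 255 of 400 single values were called. Of 5589 values of single members under the alternatives, 5472 kept their side of the threshold, 83 lost the call and 34 gained one. None that was called changed sign, but 76 uncalled values did, 7 of them of Prim2 and the others from log2 values of at most 0.13 in size. With 1 library left out at a time, the members called lower in Malt1_L88D against the vector ranged from 5 to 14 and the genes changed there from 1545 to 2854. In Malt1_V87R against the vector they ranged from 2 to 5 members and from 1130 to 1924 genes. From 2 to 5 members were called higher in Malt1_PD than in Malt1_WT, where 2387 to 4068 genes changed in either direction. In Malt1_V87R against Malt1_L88D the genes changed ranged from 0 to 2. The last comparison gave 5 genes with no filter and 25 with only its 6 libraries in the fit. On unscaled library totals the summed Malt1_L88D level was 4037 CPM. Reading only the bases before the start lowered the shares with E2F-type letters to 18.2% of members and 1.51% of all genes, those with TTTGAA to 35.3% of mitosis genes and 18.3% of all genes, and those of all genes to 37.5% for CCAAT and 35.4% for GGGCGG, in windows that are shorter by construction. Same-numbered libraries of different groups correlated by -0.0513 to 0.15 in their deviations from the group means over 30 pairs, with 2 above 0.1, so the numbers were not taken to pair them. With a replicate block 5 members were called higher in Malt1_PD than in Malt1_WT. Against the vector 6 members were called lower in Malt1_V87R and 18 in Malt1_L88D, and no member call was lost. Cdt1 was among those gained in Malt1_V87R (adjusted p = 0.021). Calls over all genes tested rose with the block too. Genes called higher in Malt1_PD than in Malt1_WT went from 1834 to 2057. Genes called lower than with the vector went from 685 to 906 in Malt1_V87R and from 1228 to 1478 in Malt1_L88D. For counts that moved with 1 library the cause was not tested. Few counts limit what can be called for Prim2, with 5 to 24 per library, and Fen1, with 36 to 129. The 3 libraries a group also bound what small differences can be called.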
